A study of Homo sapiens with 60 samples.

Results

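MUC2 and 9 other genes of the goblet cell programme were followed in HT29 cells, an established human colorectal adenocarcinoma line, after 24 h with water extracts of medicinal herbs. The members were named by symbol (MUC2, MUC5AC, ATOH1, SPDEF, REG4, TFF1, TFF3, FCGBP, AGR2 and SPINK4), and each symbol matched 1 of the 60675 gene identifiers of the deposited table of expected counts from RNA sequencing. All 10 passed the filter on low counts, among 17049 genes that did. Of the 7 extracts, Menthae Herba and Saposhnikoviae Radix are single herbs, and Soyo-san, Saengmaek-san, Okbyeongpung-san, Guibi-tang and Soshiho-tang are formulas. Each was labelled as given at 20 µg/mL (low), 100 µg/mL (medium) and 500 µg/mL (high). Every dose of 6 extracts had 3 libraries, Soshiho-tang had 1 library per dose, and the vehicle, DMSO, had 3 libraries, which serve all 18 comparisons with vehicle. The sample labels give 0.1% DMSO for the vehicle, and the design text gives a different concentration. The sources used here do not say whether DMSO was also present with the extracts. Nothing in the labels says that the 3 libraries of a group came from separate cultures, so p-values measure the spread between libraries, which may be technical.

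Goblet cells are the mucus-making cells of the intestinal epithelium. The transcription factor ATOH1 commits intestinal progenitors to the secretory lineages under negative control by Notch signalling, and SPDEF acts after it in goblet cell maturation. Goblet cells of the colon secrete the gel-forming mucin MUC2, whose folding in the endoplasmic reticulum needs the disulphide isomerase AGR2, together with the mucus protein FCGBP, the trefoil peptide TFF3, the lectin REG4 and the peptide SPINK4. MUC5AC and TFF1 are a gel-forming mucin and a trefoil peptide of the gastric surface that colorectal cancer cells can also make. HT29 is known as a line that holds a minority of mucus-secreting cells, and in these bulk libraries fewer such cells and less RNA per cell cannot be told apart.

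The smallest library held 19495005 counts, the median one 29181790 and the largest 41934333. The epithelial markers EPCAM, CDH1 and KRT8 averaged 487, 456 and 5925 CPM (counts relative to the scaled library size) in vehicle libraries, while the immune marker PTPRC reached at most 2 counts and the Paneth cell defensin DEFA5 0 counts in any of the 57 libraries of replicated groups. The goblet cell products of the normal colon, CLCA1 and ZG16, reached at most 2 and 3 counts in them. Libraries with earlier and later numbers in the labels fell apart along the first principal component of all genes, with values of -19.0 to -8.22 in 31 earlier libraries and 2.86 to 22.5 in 29 later ones. The earlier ones held every library of vehicle and of both single herbs, and the later ones every library of Soyo-san, Okbyeongpung-san and Soshiho-tang. Saengmaek-san and Guibi-tang had both, and only they let the difference between later and earlier libraries be estimated. For Soyo-san and Okbyeongpung-san, library order and extract therefore stand apart from vehicle together. Values with a term for the order are given for MUC2 in Soyo-san, for REG4 and MUC5AC in both, and for some ATOH1 changes. The gene lists, marker sums and other member changes of these formulas are given without that term.

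The genes that passed the test at the high dose of Menthae Herba fell together there and lie on different chromosomes. The sequences before 4 of them are shown, and that before FCGBP, which also passed, is not. RefSeq's promoter table (GRCh38.p14) held 7 of the 10 members, without MUC5AC, TFF1 and TFF3. The 250 bases before the start annotated by RefSeq are printed 5′ to 3′ on the strand of the gene. They are given for MUC2 (chr11:1074624-1074873, plus strand), ATOH1 (chr4:93828503-93828752, plus strand), REG4 (chr1:119811461-119811710, minus strand) and AGR2 (chr7:16805000-16805249, minus strand). Capitals mark matches on either strand to CAGCTG, an E-box form that basic helix-loop-helix factors bind, to GCGTG, the core of the aryl hydrocarbon receptor site, to TGACNNNGC, the core of the antioxidant response element, or to TATAAA.
MUC2: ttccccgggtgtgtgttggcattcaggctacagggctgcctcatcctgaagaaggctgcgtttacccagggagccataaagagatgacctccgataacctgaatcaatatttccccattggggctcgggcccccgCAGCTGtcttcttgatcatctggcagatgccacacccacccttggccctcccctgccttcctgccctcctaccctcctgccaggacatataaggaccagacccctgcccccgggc
ATOH1: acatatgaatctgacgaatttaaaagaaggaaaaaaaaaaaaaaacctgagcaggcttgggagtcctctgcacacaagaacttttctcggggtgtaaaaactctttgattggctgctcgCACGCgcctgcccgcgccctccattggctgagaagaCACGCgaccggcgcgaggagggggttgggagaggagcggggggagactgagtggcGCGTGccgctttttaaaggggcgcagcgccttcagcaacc
REG4: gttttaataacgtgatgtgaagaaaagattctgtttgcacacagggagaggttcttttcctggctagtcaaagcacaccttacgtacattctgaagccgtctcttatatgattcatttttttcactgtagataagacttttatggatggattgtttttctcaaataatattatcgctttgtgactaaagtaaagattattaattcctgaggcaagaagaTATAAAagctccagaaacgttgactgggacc
AGR2: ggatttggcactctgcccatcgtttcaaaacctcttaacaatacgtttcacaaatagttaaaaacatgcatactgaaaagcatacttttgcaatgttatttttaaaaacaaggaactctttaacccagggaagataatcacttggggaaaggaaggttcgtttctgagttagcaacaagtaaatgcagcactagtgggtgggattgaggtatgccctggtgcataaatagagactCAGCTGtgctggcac
No 2 capital stretches overlap. The window before FCGBP, not printed, holds 0 matches to any of these motifs. The E-box form occurred 1 time each before MUC2 and AGR2, which is 2 of the 7 members searched, against 14% of 35116 promoters of the same length in the table. GCGTG occurred 3 times before ATOH1 and 1 time before SPINK4, and 32.2% of all promoters hold it. TATAAA was found before REG4 and SPINK4, against 10.7% of all promoters, and TGACNNNGC before 0 of the 7 members, against 10.9%. By the GENCODE coordinates used below, the AGR2 and SPINK4 windows lie inside the gene, and the REG4 and SPDEF windows reach into it. The annotations thus place these starts differently, and which start HT29 cells use was not tested. A match describes letters in this window and is not a measured site.

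MUC2 (chr11:1074875-1110511, plus strand, GENCODE release 29 on GRCh38) had the highest mean of the 19 replicated groups in vehicle and the lowest at the high dose of Menthae Herba. Along the Menthae Herba doses it stood at 29.003, 28.5 and 30.5 CPM in vehicle, 28.0, 22.9 and 23.7 at the low dose, 21.5, 19.5 and 21.6 at the medium dose and 17.1, 17.2 and 17.8 at the high dose. Each library of a dose lay below each vehicle library, and each high-dose library lay below each medium-dose one. MUC2 fell at the high dose to 0.592 of its vehicle level (log2 change -0.76 ± 0.15, SE; 17.4 ± 0.352 against 29.3 ± 1.04 CPM, SD, n = 3 each; edgeR's quasi-likelihood test, adjusted p = 0.00091). At the medium dose the log2 change was -0.49 (adjusted p = 0.11) and at the low dose -0.24 (adjusted p = 0.57), and neither passed the threshold of 0.05.

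**Figure D1:**
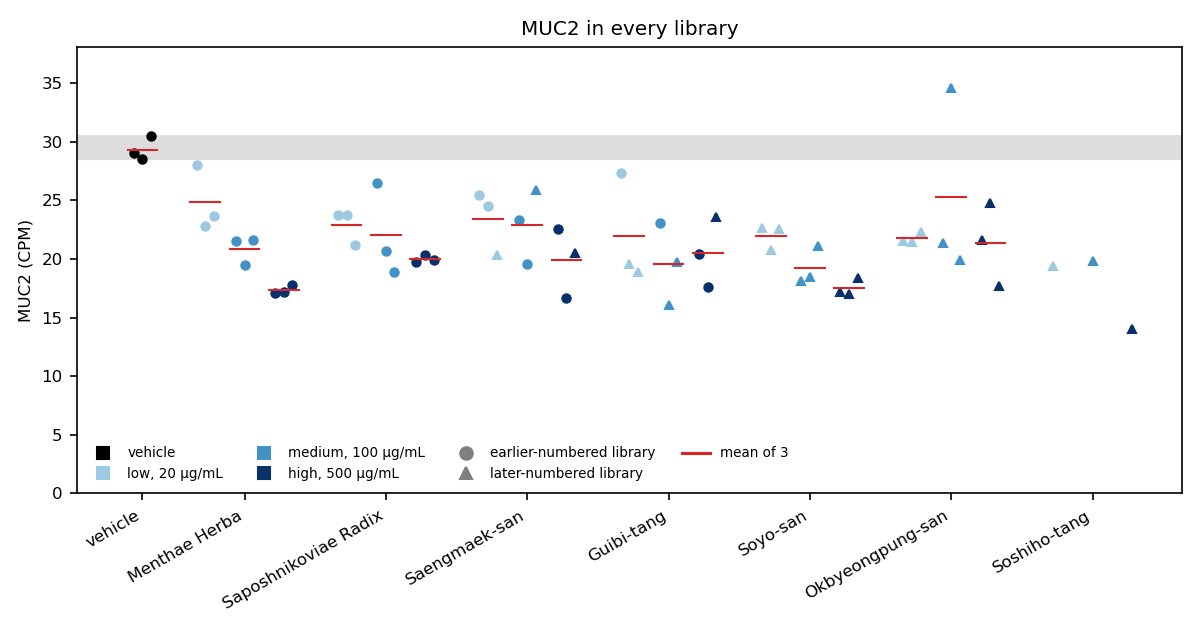
MUC2 in CPM in each of 60 libraries, by extract and dose from low to high, with vehicle at the left; points are libraries, red bars means of 3, and the grey band is the range of the 3 vehicle libraries. Of the 57 libraries in replicated groups, 1 given an extract, a medium-dose library of Okbyeongpung-san at 34.6 CPM, lies above the band, and the lowest point of all is the high-dose Soshiho-tang library at 14.04 CPM.

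Soyo-san, a formula, had MUC2 at 22.7, 20.7 and 22.6 CPM at the low dose, 18.1, 18.5 and 21.1 at the medium dose and 17.2, 17.0 and 18.3 at the high dose. All 9 libraries lay below the vehicle range, and the high dose fell by 0.74 on the log2 scale (SE 0.16, adjusted p = 0.0014) and the medium dose by 0.61 (SE 0.16, adjusted p = 0.011). The medium-dose call did not hold without the first replicate (-0.57, adjusted p = 0.052) or without the second (-0.59, adjusted p = 0.0505). With the order term the log2 change was -0.65 at the high dose (adjusted p = 0.027) and -0.52 at the medium dose (adjusted p = 0.12).

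With Saengmaek-san MUC2 fell at the high dose, to 22.6, 16.7 and 20.5 CPM against the vehicle values above (log2 change -0.56 ± 0.15, SE, adjusted p = 0.029). That call was lost in 5 of the 6 fits that left out 1 library, with adjusted p up to 0.20 without the second treated replicate. Guibi-tang stood at 20.4, 17.6 and 23.6 CPM at the high dose and 23.0, 16.0 and 19.7 at the medium dose, with log2 changes of -0.53 (adjusted p = 0.051) and -0.58 (adjusted p = 0.052). Saposhnikoviae Radix had 19.8, 20.3 and 19.9 CPM at the high dose, closely spaced and all below vehicle, with a log2 change of -0.55 (adjusted p = 0.083). In a fit of the earlier libraries alone, vehicle and both single herbs have all their libraries. The high dose of Guibi-tang kept only those at 20.4 and 17.6 CPM there. Its later library, the highest of that group at 23.6 CPM, was left out. In that fit MUC2 passed the threshold at the high doses of Saposhnikoviae Radix (-0.55, adjusted p = 0.0098) and Guibi-tang (-0.63, adjusted p = 0.0066). MUC2 also passed at the medium dose of Menthae Herba (-0.49, adjusted p = 0.016).

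Okbyeongpung-san was uneven for MUC2. Its medium dose had 21.4, 34.6 and 19.9 CPM, the second library being the highest of the 60, and its high dose had 21.6, 24.8 and 17.7 CPM. The log2 change against vehicle was -0.24 at the medium dose (adjusted p = 0.38) and -0.51 without the second library (adjusted p = 0.034). That library also had the highest MUC5AC value of its group, at 315 CPM beside 224 and 238. At the high dose the log2 change was -0.45 (adjusted p = 0.066) and at the low dose -0.43 (adjusted p = 0.073).

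In the order of the MUC2 group means, vehicle at 29.3 CPM and its neighbour, Okbyeongpung-san at the medium dose (25.3 ± 8.10, SD, n = 3), overlapped through 1 library, and Menthae Herba at the low dose came next at 24.8 ± 2.76 CPM. The groups between 24.8 and 19.2 CPM overlapped with their neighbours in that order. Soyo-san and Menthae Herba at the high dose, at 17.5 ± 0.713 and 17.4 ± 0.352 CPM, closed the order and overlapped each other.

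At the high dose of Menthae Herba 5 of the 10 members fell and 0 rose, while 3.98% of the 17049 genes tested passed downward and 4.59% upward. MUC2, ATOH1, REG4, FCGBP and AGR2 passed, 9 of 10 members had a negative log2 change, and the median over the members was -0.33 against -0.00 over all genes tested. DESeq2's test called the same 5 members. The members were chosen with earlier results of these data known, so the contrast with all genes is a description. Where groups are said not to overlap with vehicle at this dose, the share of all genes without overlap is not given here.

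Of the transcription factors, ATOH1 (chr4:93828753-93830964, plus strand) fell and SPDEF was not called. ATOH1 had 2.84, 2.696 and 2.84 CPM at the high dose of Menthae Herba against 4.64, 3.82 and 3.88 CPM in vehicle, and the groups did not overlap (log2 change -0.55 ± 0.14, SE, adjusted p = 0.0094). Without the first vehicle library, the highest of the 3, the change was -0.46 (adjusted p = 0.077). At the low and medium doses ATOH1 stood at 3.06, 4.48 and 4.14 CPM and at 3.53, 3.41 and 3.73 CPM. SPDEF (chr6:34537802-34556333, minus strand) had 30.5, 27.3 and 31.5 CPM at the high dose against 32.9, 29.7 and 30.7 CPM in vehicle, with overlapping groups and a log2 change of -0.06 (adjusted p = 0.64; 95% interval -0.19 to 0.06). Across all 18 comparisons with vehicle SPDEF kept between -0.18 and 0.15 on the log2 scale.

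AGR2 (chr7:16791811-16833433, minus strand), which helps MUC2 to fold, had 163, 164 and 161 CPM at the high dose of Menthae Herba against 195, 199.5 and 198 CPM in vehicle. The decrease was small, to 0.823 of the vehicle level, and passed the test (log2 change -0.28 ± 0.05, SE, adjusted p = 0.00014). The libraries of both groups lay close together, but the test takes its spread from all 57 libraries in the fit. FCGBP (chr19:39863323-39934626, minus strand), a mucus protein that binds MUC2, had 13.1, 14.4 and 12.6 CPM against 19.1, 16.1 and 17.0 CPM in vehicle (log2 change -0.38 ± 0.12, SE, adjusted p = 0.036). The FCGBP groups did not overlap, but in 5 of 6 fits that left out 1 library its adjusted p was above the threshold, up to 0.18 without the first vehicle library.

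REG4 (chr1:119794018-119811660, minus strand), a secreted C-type lectin of enteroendocrine and goblet cells, was the member called in the most comparisons. It had 18.3, 17.2 and 18.4 CPM at the high dose of Menthae Herba, against 23.9, 23.4 and 23.4 CPM in vehicle (log2 change -0.39 ± 0.06, SE, adjusted p = 3.2e-05). Soyo-san at the high dose held the lowest group mean, with 15.8, 16.7 and 16.8 CPM (log2 change -0.52 ± 0.07, SE, adjusted p = 4.1e-07). The 3 vehicle libraries lay close together, and neither treated group overlapped them. REG4 also fell at the medium and low doses of Soyo-san (-0.36 and -0.28), at the high, medium and low doses of Okbyeongpung-san (-0.38, -0.43 and -0.35), at the high dose of Guibi-tang (-0.27) and at the medium dose of Menthae Herba (-0.28), with adjusted p from 3.4e-05 to 0.024. All these comparisons share the 3 vehicle libraries. MUC2, MUC5AC, REG4 and AGR2 each had their highest mean of the 19 groups in vehicle. For each of them all 18 log2 changes against vehicle were negative, called or not. With the order term the Soyo-san and Okbyeongpung-san changes of REG4 were -0.38 to -0.62, and all 6 were called. The Menthae Herba call at the medium dose was lost in all 6 fits that left out 1 library, with adjusted p of 0.051 to 0.20. The Guibi-tang call was lost in 2 of 6, without the first vehicle library (adjusted p = 0.064) and without the second treated one (adjusted p = 0.11). In Saengmaek-san REG4 stood near vehicle, with 21.6, 20.6 and 25.6 CPM at the high dose, a log2 change of -0.07 (adjusted p = 0.57).

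**Figure D2:**
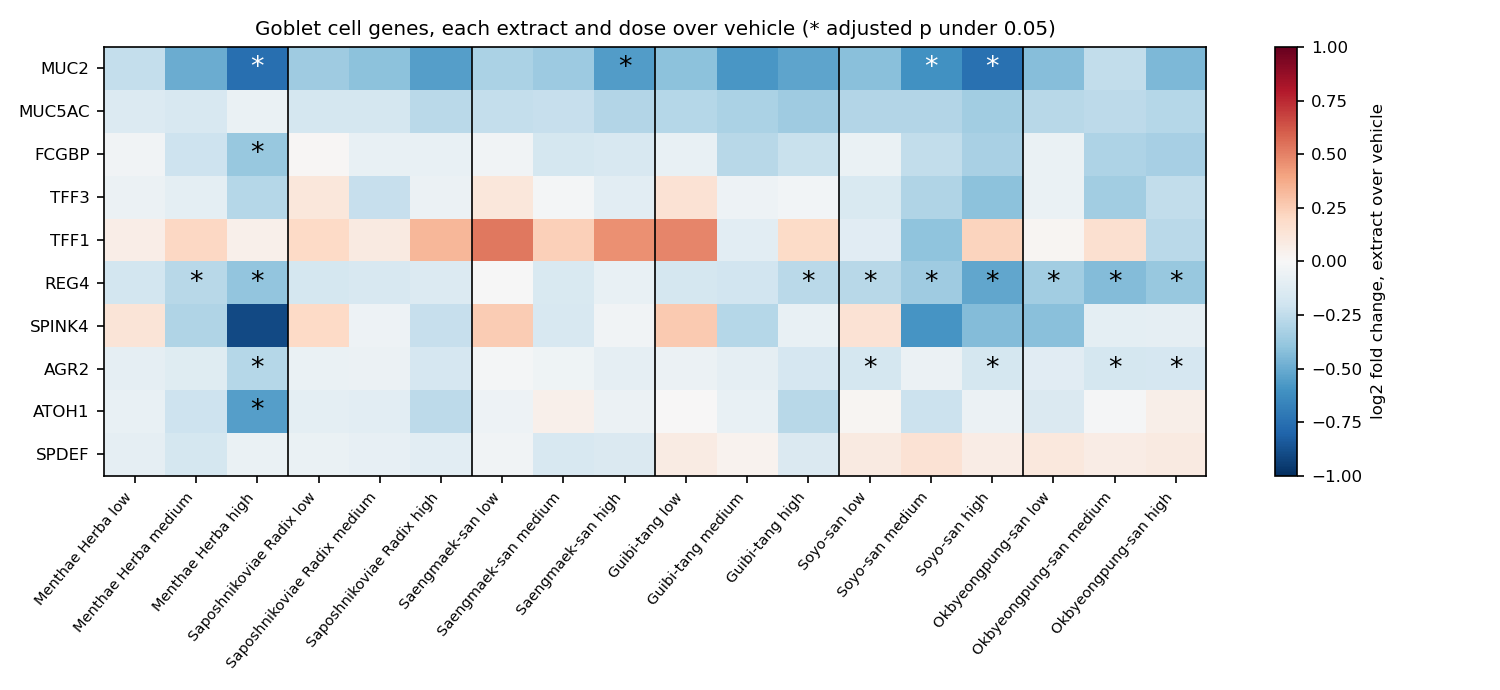
Log2 fold change of the 10 members, extract over vehicle, for 6 extracts at the low, medium and high dose (blue below vehicle, red above; stars mark an adjusted p under 0.05 in edgeR's quasi-likelihood test). Stars fall in the rows of MUC2 (4), REG4 (9), AGR2 (5), ATOH1 (1) and FCGBP (1), all in blue cells; the dark SPINK4 cell and the red TFF1 cells, from counts of at most 21 and 27, carry none.

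The remaining members were not called by edgeR's test in any comparison. MUC5AC (chr11:1157953-1201138, plus strand), a gel-forming mucin encoded beside MUC2, had 281, 296 and 314 CPM at the high dose of Menthae Herba against 331, 292 and 309 CPM in vehicle. Those groups overlapped, with a log2 change of -0.07 (adjusted p = 0.82; 95% interval -0.30 to 0.17). All 18 log2 changes of MUC5AC against vehicle were negative. Its largest negative value was -0.36 at the high dose of Guibi-tang (adjusted p = 0.12), and at the high dose of Soyo-san it had 259, 265 and 209.7 CPM, below all vehicle libraries (-0.34, adjusted p = 0.053). DESeq2's test called MUC5AC there (-0.35, adjusted p = 0.033), and without the filter on low counts edgeR's test called it in 14 of the 27 comparisons, and with the compared groups fitted alone in 7. MUC5AC was lower in later than in earlier libraries of Saengmaek-san and Guibi-tang by the order term (-0.26 ± 0.06, SE, adjusted p = 0.0012), and with that term its Soyo-san and Okbyeongpung-san changes were -0.08 to -0.00.

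TFF3 (chr21:42311667-42315651, minus strand) had 3.41, 3.62 and 3.48 CPM at the high dose of Menthae Herba against 4.37, 4.06 and 4.40 CPM in vehicle. The groups did not overlap, for which the share of all genes is not given here, and the change missed the threshold (-0.28 ± 0.14, SE, adjusted p = 0.23). At the high dose of Soyo-san TFF3 had 3.64, 2.46 and 3.496 CPM (-0.41 ± 0.15, SE, adjusted p = 0.061), a change that passed without the filter (adjusted p = 0.043) and with the groups alone (adjusted p = 0.042). TFF1 (chr21:42362282-42366594, minus strand) and SPINK4 (chr9:33218365-33248567, plus strand) lay below 1 CPM in every library, with 5 to 27 and 3 to 21 counts, and their standard errors, with medians of 0.27 and 0.36 on the log2 scale, leave changes of the size seen in MUC2 hard to detect.

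**Figure D3:**
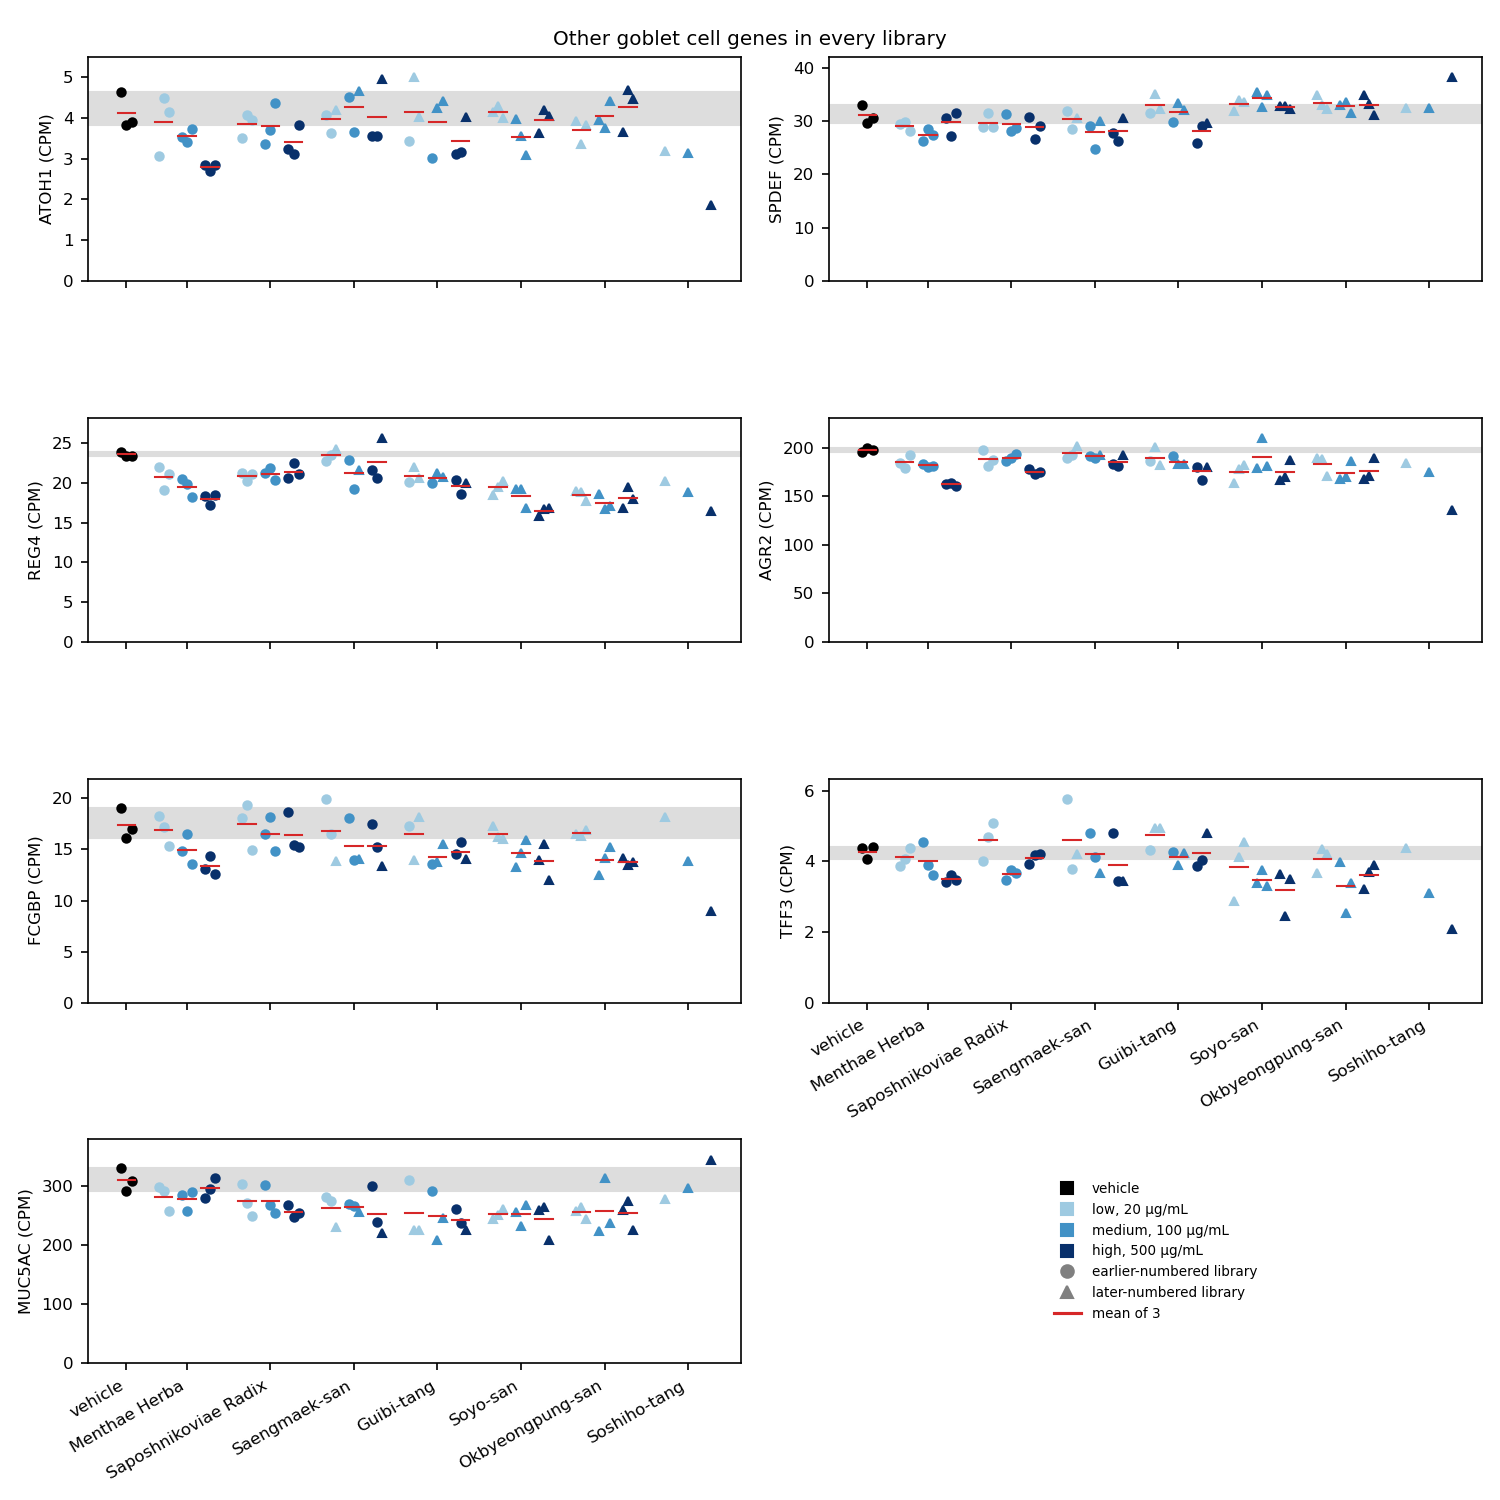
CPM of 7 other members in each of 60 libraries (circles, earlier-numbered; triangles, later-numbered), by extract and dose from low to high with vehicle at the left; red bars are means of 3 and grey bands the range of the vehicle libraries. REG4 and AGR2 at the high dose of Menthae Herba (17.2 to 18.4 and 161 to 164 CPM) lie wholly below their bands, whereas SPDEF at that dose (27.3 to 31.5 CPM) reaches into its own.

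At the other doses and extracts fewer members passed. With Soyo-san 3 members fell at the high dose (MUC2, REG4 and AGR2), 2 at the medium dose (MUC2 and REG4) and 2 at the low dose (REG4 and AGR2), where 6.43%, 4.29% and 1.89% of all genes tested passed downward. AGR2 had 167, 171 and 188 CPM at its high dose and 164, 179 and 182 CPM at its low dose (log2 changes -0.18 and -0.18, adjusted p = 0.016 and 0.04), and at the medium dose, with 179.6, 210.2 and 182 CPM, it overlapped vehicle. The AGR2 call at the high dose was lost without the first or the second treated library (adjusted p = 0.11 and 0.072), and at the low dose it was lost in 5 of 6 fits. With Okbyeongpung-san REG4 and AGR2 fell at the high and the medium dose and REG4 at the low dose, where 3.03%, 1.58% and 4.05% of all genes passed downward. Its AGR2 calls, of -0.16 and -0.18 on the log2 scale (adjusted p = 0.038 each), were each lost in 5 of 6 fits that left out 1 library. In 3 further groups 1 member fell, REG4 at the medium dose of Menthae Herba, MUC2 at the high dose of Saengmaek-san and REG4 at the high dose of Guibi-tang, where 0.405%, 1.89% and 0.974% of all genes passed downward. At the high doses of Saengmaek-san and Guibi-tang 2.39% and 1.28% of all genes, and 0 members, passed upward.

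In 8 comparisons with vehicle edgeR's test called 0 of the 10 members. At the low dose of Menthae Herba 0.0587% of all genes passed in either direction. The low and medium doses of Saengmaek-san had 0.0938% and 0.416% of all genes called, and those of Guibi-tang 0.85% and 1.07%. For Saposhnikoviae Radix the shares were 0.17%, 0.0293% and 0.499% from low to high dose. Between 1 and 4 members had an unadjusted p under 0.05 in each, whereas the shares above are for adjusted p. The share of all genes under that unadjusted threshold is given neither here nor beside the later counts of that kind. DESeq2's test called MUC2 and AGR2 at the high dose of Saposhnikoviae Radix, MUC2 at the medium dose of Guibi-tang, and 0 members in the others.

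The comparison of the high with the low dose uses no vehicle library. Within Menthae Herba, AGR2 was lower at the high dose, with 163, 164 and 161 CPM against 185, 179 and 192 CPM at the low dose (log2 change -0.19 ± 0.05, SE, adjusted p = 0.027), the 1 member called where 1.23% of all genes passed downward and 1.13% upward. The AGR2 call was lost in 5 of 6 fits that left out 1 library (adjusted p up to 0.19). MUC2 (-0.52 ± 0.15, SE, adjusted p = 0.064), ATOH1 (-0.48 ± 0.14, SE, adjusted p = 0.06) and REG4 (-0.20 ± 0.07, SE, adjusted p = 0.093) had groups that did not overlap, as 10.8% of all genes did downward, and missed the threshold. ATOH1 and REG4 passed in a fit of the earlier libraries alone, as did MUC2, whereas MUC5AC and SPDEF stood at 0.07 and 0.03 in the main fit. In the other 5 extracts edgeR's test called 0 members between high and low dose, with 0 to 2 members at an unadjusted p under 0.05 and 0 by DESeq2, and the shares of all genes called in either direction were 0.0293% (Saposhnikoviae Radix), 0.0235% (Saengmaek-san), 0.352% (Guibi-tang), 0.129% (Soyo-san) and 0.00587% (Okbyeongpung-san). The MUC2 log2 change there was -0.33 ± 0.16 in Soyo-san (SE, adjusted p = 0.65) and -0.02 ± 0.16 in Okbyeongpung-san.

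**Figure D4:**
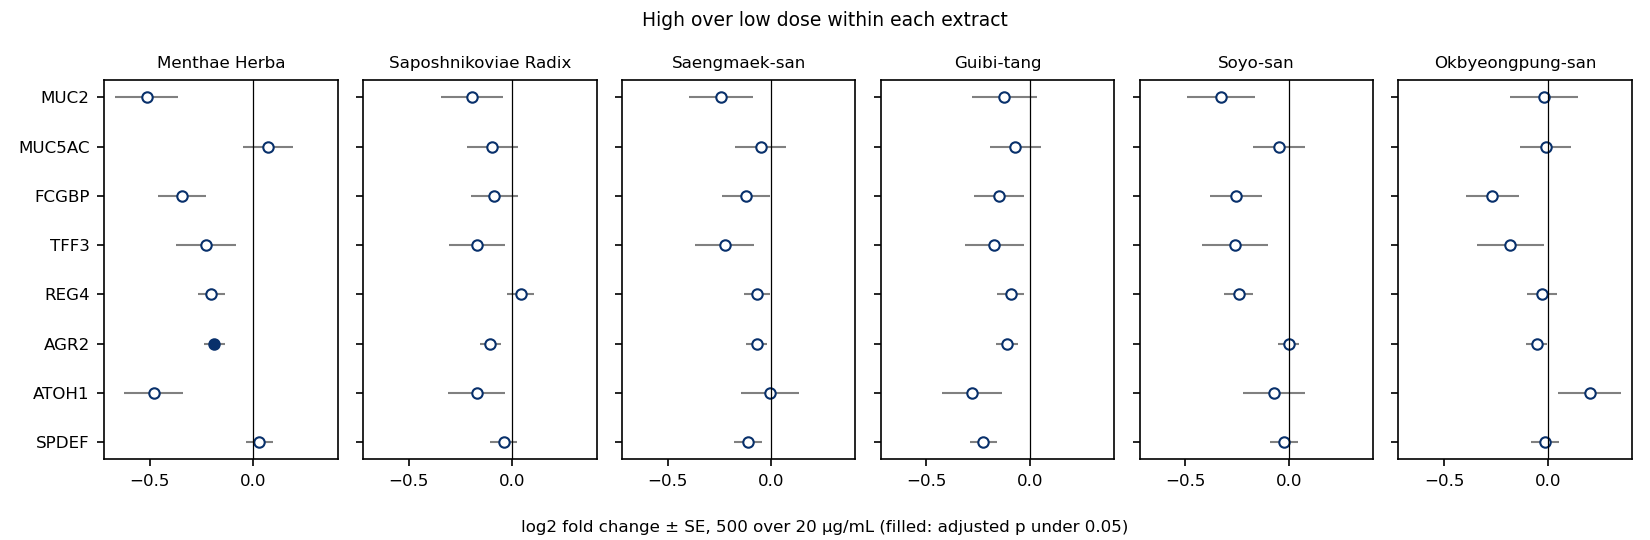
Log2 fold change of 8 members, high over low dose within each of 6 extracts, with standard errors; filled points have an adjusted p under 0.05. AGR2 in Menthae Herba (-0.19) is the 1 filled point, and in that panel MUC2 (-0.52) and ATOH1 (-0.48) lie farthest from 0.

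Between extracts at the high dose, REG4 was lower with Menthae Herba than with Saposhnikoviae Radix, at 18.3, 17.2 and 18.4 CPM against 20.7, 22.5 and 21.1 CPM (log2 difference -0.25 ± 0.06, SE, adjusted p = 0.034). It was the 1 member called where 0.604% of all genes were lower, and the call was lost in all 6 fits that left out 1 library (adjusted p of 0.050 to 0.24). MUC2 differed by -0.20 between these herbs (95% interval -0.51 to 0.10, adjusted p = 0.80), an interval that leaves both no difference and one of the size of the REG4 difference. Guibi-tang against Saengmaek-san had 0 members called by edgeR or DESeq2 (0.37% of all genes called), 1 at an unadjusted p under 0.05, and a MUC2 difference of 0.03 (95% interval -0.28 to 0.34). Soyo-san against Okbyeongpung-san likewise had 0 members called by either tool, 0 at an unadjusted p under 0.05 and 0% of all genes called, with a MUC2 difference of -0.29 (95% interval -0.62 to 0.03).

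Soshiho-tang, with 1 library per dose, allows no test. Its high-dose library had the lowest value of all 60 libraries for 5 of the 10 members and the highest for 2, and over all 17049 genes tested it was the lowest for 8.62% and the highest for 9.97%. The 5 were MUC2 at 14.04 CPM (95% Poisson interval 12.5 to 15.7, for counting error only), ATOH1 at 1.87 CPM, TFF3 at 2.09 CPM, FCGBP at 8.93 CPM and AGR2 at 136 CPM, against vehicle means of 29.3, 4.11, 4.28, 17.4 and 198 CPM. The same library had the highest value of all 60 for MUC5AC, at 345 CPM, and SPDEF, at 38.2 CPM, against vehicle means of 311 and 31.1 CPM. From low to high dose MUC2 stood at 19.4, 19.9 and 14.04 CPM, ATOH1 at 3.19, 3.14 and 1.87 CPM, TFF3 at 4.38, 3.10 and 2.09 CPM and FCGBP at 18.1, 13.9 and 8.93 CPM. These differences have no replicate check.

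Among 10046 protein-coding genes with a mean of at least 5 CPM, those whose group means followed those of MUC2 most closely over the 19 groups included CREB3L1 (r = 0.90), TP53I11 (r = 0.89), FOXA2 (r = 0.88) and TP53INP2 (r = 0.87). The means were also centred within sets of groups whose library names open with the same number, with vehicle put with the single herbs. For these genes r was then 0.88 to 0.92. These are correlations of mean log2 CPM across the 19 groups, of which vehicle is 1 and whose libraries differ in depth, given as a description. CREB3L1, a transcription factor of secretory cells, and FOXA2, a forkhead factor of gut endoderm, were also in the list of secretory lineage factors. Among the members FCGBP (r = 0.64), AGR2 (r = 0.57), ATOH1 (r = 0.54) and REG4 (r = 0.52) came closest to MUC2 with SPINK4 (r = 0.56), whereas TFF1 (r = 0.07) and SPDEF (r = -0.02) did not follow it.

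**Figure D5:**
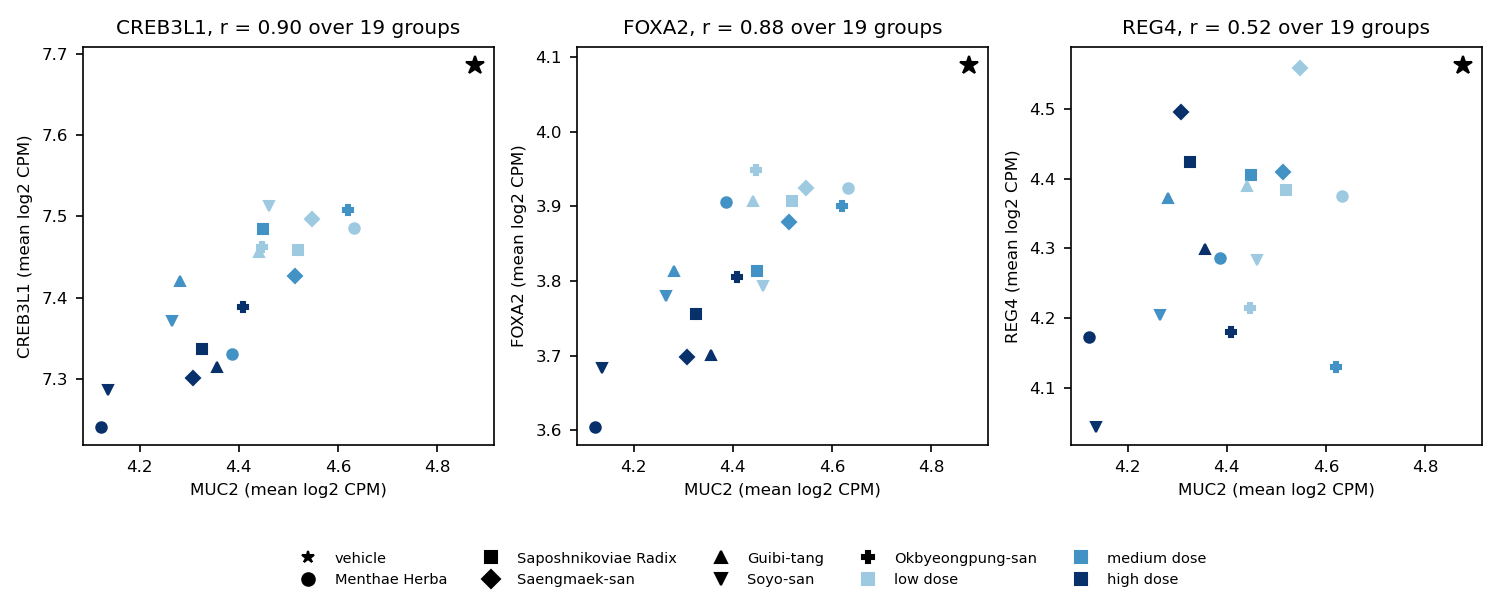
Mean log2 CPM of CREB3L1, FOXA2 and REG4 (vertical axes) against MUC2 (horizontal axis) in the 19 replicated groups, with vehicle as a star and darker points at higher doses. CREB3L1 and FOXA2 lie along a line (r = 0.90 and 0.88) with vehicle at its upper end and the high dose of Menthae Herba at its lower end, and REG4 scatters more (r = 0.52).

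The gene lists were also chosen with earlier results of these data known, so their counts beside the shares of all genes are a description. Of 24 other measured secretory lineage factors and Notch genes, 7 fell and 0 rose at the high dose of Menthae Herba, with a median log2 change of -0.15 over the list, where 3.98% of all genes tested passed downward and 4.59% upward. FOXA2 had 12.1 ± 0.147 against 17.0 ± 0.384 CPM in vehicle (SD, n = 3 each; -0.49, adjusted p = 0.00038) and CREB3L1 151 ± 2.16 against 206 ± 10.1 CPM (-0.45, adjusted p = 0.00084). KLF4, a factor of goblet cell differentiation, and HNF4A, an intestinal nuclear receptor, fell by 0.29 and 0.14 on the log2 scale (adjusted p = 0.018 each). At the high dose of Soyo-san 7 of the 24 fell and 0 rose, where 6.43% of all genes passed downward and 8.03% upward, and CREB3L1 (-0.40), FOXA2 (-0.41), SOX9 (-0.25) and the receptor NOTCH2 (-0.24) had the smallest p, with adjusted p of 0.0016 to 0.0063.

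Other goblet cell products fell in 6 and rose in 1 of 18 measured genes at the high dose of Menthae Herba, with a median of -0.25. At that dose 3.98% of all genes tested passed downward and 4.59% upward. BCAS1 had 44.3 ± 0.645 against 63.0 ± 1.56 CPM in vehicle (-0.51, adjusted p = 2.3e-06) and the lectin LGALS4 417 ± 9.87 against 468 ± 4.44 CPM (-0.17, adjusted p = 0.0092). The guanylate cyclase ligand GUCA2A and the goblet cell protein RETNLB fell from vehicle levels below 1 CPM (log2 changes -1.10 and -1.47, adjusted p = 0.016 and 0.017). The 1 gene that rose, named after its values were seen, was CEACAM6, a cell adhesion molecule (0.21, adjusted p = 0.036). At the high dose of Soyo-san 1 of the 18 fell and 1 rose, near the shares of all genes there, 6.43% and 8.03%. The gene that rose was PIGR, the receptor that carries IgA across the epithelium, at 2.95 ± 0.696 against 0.321 ± 0.0849 CPM (3.15, adjusted p = 6.3e-14).

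At the high dose of Menthae Herba 3 of 22 measured genes that glycosylate mucins rose and 0 fell, with a median of -0.07, where 4.59% of all genes passed upward: the sialyltransferases ST3GAL4 (108 ± 2.57 against 84.8 ± 2.66 CPM; 0.35, adjusted p = 3.9e-07) and ST3GAL1 (0.18, adjusted p = 0.002) and the core-branching enzyme GCNT3 (0.27, adjusted p = 8.6e-06). Of 23 genes of mucin folding, granules and secretion 3 fell and 2 rose, with a median of 0.00; SYTL2, a granule-docking protein, fell by 0.39, the membrane-fusion protein STX3 by 0.20 and the stress sensor ERN2 by 0.33 on the log2 scale, and the disulphide isomerases TXNDC5 and PDIA6, the second named after its values were seen, rose by 0.16 and 0.13. Of 8 measured membrane mucins 4 fell and 0 rose. The share of all genes that passed downward, for each list in this paragraph, was 3.98%. MUC3A stood at 24.6 ± 0.679 against 36.4 ± 0.684 CPM (-0.56, adjusted p = 0.0002) and MUC12 at 9.69 ± 1.45 against 14.1 ± 0.937 CPM (-0.55, adjusted p = 0.011).

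Markers of other cell types were summed beside the members at the high dose of Menthae Herba, where 3.98% of all genes tested passed downward and 4.59% upward. Summed enterocyte markers (9 of 20 measured) ranged from 586 to 593 CPM there, against 579 to 581 CPM in vehicle, with 2 genes lower and 1 higher. Summed stem cell markers (7 of 9 measured) ranged from 579 to 590.5 CPM against 579.8 to 593 CPM, with 0 genes called by edgeR and 4 at an unadjusted p under 0.05. Enteroendocrine markers (4 of 15 measured) summed to 2.52 to 3.04 CPM against 2.69 to 3.35 CPM, with 0 called and 0 at an unadjusted p under 0.05, and the hormone genes PYY and CHGA reached at most 2 and 7 counts in any library. Paneth cell markers (4 of 7 measured), nearly all of it LYZ, summed to 1553 to 1599 CPM against 1442 to 1488 CPM, with 1 gene lower and 0 higher. Fibroblast and endothelial markers (3 of 9 measured) summed to 3.21 to 4.09 CPM against 3.95 to 4.50 CPM. Epithelial markers (10 of 10 measured) summed to 12129.5 to 12877 CPM against 11688.6 to 12354 CPM, with 2 genes lower and 1 higher, and immune markers (4 of 8 measured, nearly all of it LYZ again) to 1533 to 1579.98 CPM against 1417 to 1463 CPM, with 1 higher. The enterocyte, Paneth and immune sums were higher than in each vehicle library, and the other sums overlapped with vehicle. Within the enterocyte sum KRT20 averaged 254 CPM against 222 in vehicle, and VIL1 137 against 161. The means of FABP1, SLC26A2, CDHR5 and GUCA2B were also lower than in vehicle, and those of CA2, CEACAM1 and CEACAM7 higher. With the high dose of Soyo-san the stem cell sum, at 545 to 568 CPM, and the fibroblast and endothelial sum, at 3.24 to 3.28 CPM, lay below each vehicle library, and the epithelial sum, at 13374 to 14500 CPM, and the enterocyte sum, at 582 to 621 CPM, lay above. The part of these markers in the member results was not tested.

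Library order touched ATOH1 most. In the later libraries of Saengmaek-san and Guibi-tang ATOH1 was higher than in the earlier ones by the order term (0.33 ± 0.08, SE, adjusted p = 0.00048), as 29.6% of all genes differed in either direction, and SPDEF (0.11, adjusted p = 0.018) and REG4 (0.10, adjusted p = 0.044) were also higher. MUC2 (-0.09, adjusted p = 0.52) and AGR2 (0.04, adjusted p = 0.40) were not called. With the term ATOH1 was called at the medium dose of Soyo-san (-0.54, adjusted p = 0.025) and at the low dose of Okbyeongpung-san (-0.48, adjusted p = 0.042), where the fit without it gave -0.21 (adjusted p = 0.37) and -0.15 (adjusted p = 0.59). The Menthae Herba and vehicle libraries are all earlier ones, so that comparison does not set later libraries against earlier ones. Within the earlier part the vehicle libraries come first and carry their own series of names. A difference between these series cannot be told apart from the extract.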

How the data were processed

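HT29 cells were exposed to an extract or to vehicle for 24 h before RNA sequencing. The deposited values are expected counts per gene; RSEM 1.3.3, STAR 2.7.3a, Trim Galore 0.6.5, FastQC 0.11.9 and GRCh38 (hg38) are named, per the submitters' processing notes. Which annotation release and strand setting served the counting is not given in the sources used here. Expected counts divide reads that match several genes, and 27.7% of values above 0 were not whole, but 0% of those of the 10 members. Counts were rounded before testing.

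The 57 libraries of 19 groups of 3 entered 1 fit of edgeR 4.0.16 in R 4.3.3 (filterByExpr, which kept 17049 genes; TMM scaling; quasi-likelihood test, robust, no block, 38 residual degrees of freedom). In each of 27 comparisons p-values were adjusted over all 17049 genes by the Benjamini-Hochberg method, with a threshold of 0.05. CPM use TMM-scaled library sizes, and log2 CPM a prior count of 2. Fold changes are of the first-named over the second-named group of a comparison, and intervals are 95%. Total counts were 19495005 to 41934333 per library, and counting intervals cover counting error only. Alternatives were DESeq2 1.42.0 size factors, DESeq2's test, no filter (at least 1 count in all), a replicate block, fits of only the groups compared, a term for library order, the earlier libraries alone, and leaving out each library in turn. The functions were tested on simulated counts.

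Replicate numbers paired the libraries in 1 of 27 comparisons by the correlation of their deviations (0.144, 0.129 and 0.286 for Guibi-tang against Saengmaek-san at the high dose), where the block changed no member call. Members and 12 gene lists were chosen with earlier results of these data known. Of each list, up to 4 called genes with the smallest p are named, with every member in all comparisons, and the 5 genes most like MUC2, of which 1 is not reported here. RefSeq promoters come from GRCh38.p14, and gene coordinates from GENCODE release 29, which may not be the submitters' release.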

Additional observations from a re-analysis of the deposited data

Results flagged for a closer look

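Some values came from the Soshiho-tang libraries, 1 per dose, which entered no comparison, and lay above the highest of the 3 vehicle libraries. MUC5AC had 345 CPM in the high-dose library, against at most 331 CPM in vehicle. SPDEF had 38.2 CPM there, against at most 32.9 CPM. TFF1 had 0.666 CPM at the high, 0.621 CPM at the medium and 0.698 CPM at the low dose, against at most 0.571 CPM, from 15, 17 and 14 counts whose 95% Poisson intervals all reach below the vehicle mean of 0.466 CPM.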

How the results depend on the processing

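No change called in either fit turned its direction under an alternative. Over the 10 members in 27 comparisons the order term turned the sign of 17 uncalled values of 270 (the largest, ATOH1 at the low dose of Soyo-san, to -0.32 from 0.02), the earlier libraries alone 6 of 150, DESeq2's size factors and its test 1 each, and leaving out 1 library 131 of 1620. With DESeq2 size factors all counts and the high-dose MUC2 values kept their side of the threshold. For MUC2 at the high dose against vehicle, the calls gained were, without the filter, Saposhnikoviae Radix (-0.55), Guibi-tang (-0.54) and Okbyeongpung-san (-0.46); with DESeq2's test -0.55, -0.52 and -0.46; with the groups alone -0.55, -0.53 and -0.45; with the replicate block Guibi-tang (-0.53); and with the earlier libraries alone Saposhnikoviae Radix (-0.55) and Guibi-tang (-0.63). Without the filter members called numbered, from low to high dose against vehicle, 1 and 2 in Menthae Herba (low, medium), 1, 1 and 2 in Saposhnikoviae Radix, 2, 2 and 2 in Saengmaek-san, 2, 3 and 3 in Guibi-tang, 4, 4 and 6 in Soyo-san and 3, 5 and 5 in Okbyeongpung-san, 4 for Menthae Herba high against low, 1 for Soyo-san high against low, 2 for Menthae Herba against Saposhnikoviae Radix and 1 for Soyo-san against Okbyeongpung-san. With DESeq2's test they were 2 (Menthae Herba medium), 2 (Saposhnikoviae Radix high), 3 and 1 (Guibi-tang high, medium), 5 (Soyo-san high), 3 and 2 (Okbyeongpung-san high, low) and 2 (Menthae Herba high against low). With the groups alone they were 3 (Menthae Herba medium), 3 and 1 (Saposhnikoviae Radix high, low), 3 (Guibi-tang high), 5, 4 and 4 (Soyo-san high, medium, low), 5, 1 and 3 (Okbyeongpung-san high, medium, low), 3 (Menthae Herba high against low) and 4 (Menthae Herba against Saposhnikoviae Radix). The replicate block, whose numbers pair libraries in 1 comparison, gave 2 and 1 (Guibi-tang high, medium), 5 (Soyo-san high) and 2 (Menthae Herba high against low). The order term gave 2, 1 and 1 (Guibi-tang high, medium, low), 2 (Okbyeongpung-san low) and 3 (Menthae Herba high against low), and the earlier libraries alone 3 (Menthae Herba medium), 2 (Saposhnikoviae Radix high), 2 (Saengmaek-san high), 3 (Guibi-tang high) and 4 (Menthae Herba high against low). With the earlier libraries alone, the high doses of Saengmaek-san and Guibi-tang were without their later library. The shares of all genes called under these alternatives are not given here. The counts therefore do not say whether members gained calls more often than other genes did. The cause of these shifts in the member counts was not tested.

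Leaving out 1 library at a time, MUC2 at the high dose ranged from -0.78 to -0.73 in Menthae Herba, -0.57 to -0.52 in Saposhnikoviae Radix, -0.67 to -0.44 in Saengmaek-san, -0.63 to -0.42 in Guibi-tang, -0.78 to -0.72 in Soyo-san and -0.58 to -0.34 in Okbyeongpung-san. Members called ranged from 3 to 5 (Menthae Herba high), 2 to 3 (Soyo-san high), 1 to 2 (Soyo-san medium, Okbyeongpung-san high), 1 to 3 (Okbyeongpung-san medium), 1 to 1 (Okbyeongpung-san low), 0 to 2 (Soyo-san low, Saengmaek-san high, Guibi-tang at each dose, Menthae Herba high against low) and 0 to 0 in the other comparisons. Groups of 3 libraries and counts of at most 27 for TFF1 and SPINK4 limit what could be detected.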

Other observations

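In the comparison of high with low dose of Menthae Herba, which uses no vehicle library, 2 of 24 secretory lineage and Notch genes fell and 0 rose, where 1.23% of all genes tested passed downward and 1.13% upward. HES6, a helix-loop-helix factor of the secretory lineage, had 12.1 ± 0.925 against 17.0 ± 0.240 CPM (SD, n = 3 each; log2 change -0.49, adjusted p = 0.00093), and the Notch ligand DLL4 4.30 ± 0.334 against 5.73 ± 0.226 CPM (-0.42, adjusted p = 0.014). In vehicle HES6 averaged 13.7 CPM and DLL4 5.24 CPM, below the low dose, and neither was called at the high dose against vehicle. BCAS1 fell by 0.36 on the log2 scale between the doses (adjusted p = 0.0013), the 1 of 18 other goblet cell products called. Of 22 mucin glycosylation genes 3 rose, the sialyltransferases ST3GAL4 (0.26, adjusted p = 0.00016) and ST3GAL1 (0.18, adjusted p = 0.0028) and GCNT3 (0.19, adjusted p = 0.0038), and 1 fell, the fucosyltransferase FUT2 of the secretor type (-0.33, adjusted p = 0.0038).

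PIGR rose at the high doses of Guibi-tang, to 3.42 ± 0.273 CPM, and of Okbyeongpung-san, to 3.11 ± 0.952 CPM, against 0.321 ± 0.0849 CPM in vehicle (SD, n = 3 each; log2 changes 3.37 and 3.24, adjusted p = 1.5e-15 and 2.2e-14). DMBT1, a secreted mucosal glycoprotein, rose by 0.92 and 1.08 on the log2 scale at these doses (adjusted p = 0.03 and 0.0058). At the high doses of Guibi-tang and Saengmaek-san 5 of 24 secretory lineage and Notch genes fell, where 0.974% and 1.89% of all genes passed downward, FOXA2 by 0.40 on the log2 scale in each (adjusted p = 0.013 and 0.011) and CREB3L1 by 0.37 and 0.38 (adjusted p = 0.015 and 0.011), and JAG1, a Notch ligand, rose with Guibi-tang, where 1.28% of all genes passed upward (0.24, adjusted p = 0.0092).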
